A study of Danio rerio with 58 samples.

Results

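The 8 red cell membrane and iron genes described here, all found by symbol among the 35117 genes of the count table, were followed in single cells of the zebrafish dorsal aorta. They are slc4a1a, epb41b and sptb (membrane and membrane skeleton), cahz (carbonic anhydrase), epor (erythropoietin receptor), and tfr1a, slc11a2 and slc25a37 (iron uptake). Their Ensembl IDs in the table are ENSDARG00000012881, ENSDARG00000029019, ENSDARG00000030490, ENSDARG00000011166, ENSDARG00000090834, ENSDARG00000101322, ENSDARG00000024295 and ENSDARG00000073743, in that order. The table held 58 Smart-seq2 libraries, each from 1 cell picked by hand for red Eos fluorescence: 12 floor and 10 roof cells at 28 hours post fertilisation (hpf), and 18 floor and 18 roof cells at 21 hpf. All embryos carried Tg(flk1:eGFP) and Tg(flk1:NLS-Eos), with both reporters driven by the flk1 promoter, which is active in endothelium and its precursors. The floor (ventral wall) or the roof (dorsal wall) of the vessel was photoconverted from green to red before the cells were dissociated. The labels name no embryo, so each of the 4 groups counts as 1 sample and no p-value was computed.

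A developing red cell replaces its ordinary cortex with a spectrin skeleton that is tied to the membrane at band 3 and protein 4.1 complexes, and it takes up large amounts of iron for heme. Iron-loaded transferrin enters with the transferrin receptor, the divalent metal transporter moves the iron out of the endosome, and mitoferrin carries it into the mitochondrion, where heme is made. Most of these genes were found in zebrafish through mutants with anaemia, several of them named after wines. The floor of the aorta is where blood stem and progenitor cells leave the vessel wall, and primitive red cells of the embryo arise nearby and enter the circulation at about these stages.

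Levels are given as CPM, the reads of a gene per 1000000 reads of the cell. For a group, every cell was thinned at random to 200000 reads and the reads were summed. Intervals are exact 95% intervals and cover counting error only, not the spread between embryos. Detection of a gene in a cell means at least 5 thinned reads. Total counts per cell had medians of 5043748 in the floor and 4242151 in the roof at 28 hpf, and of 1448099 in the floor and 1744157 in the roof at 21 hpf. One roof cell of 21 hpf was too shallow to be thinned and enters the per-cell values only. Thinning evens out reads but not the number of genes found in a cell. Floor cells 1, 3, 4 and 9 of 28 hpf had 3001, 3608, 2573 and 2322 genes with 1 or more reads. The floor cells of 21 hpf had 4680 to 9691. Roof cells had 3965 to 6787 at 28 hpf, and from 3429, in the shallow cell, to 9113 at 21 hpf. Whether genes were missed in the libraries with few genes was not tested.

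The labels call every cell endothelial, and the floor cells largely went against that label. A list of 14 endothelial markers took a median of 0.0924% of the reads of a floor cell and 1.63% of those of a roof cell at 28 hpf, and 0.126% in the floor and 2.08% in the roof at 21 hpf. At 28 hpf, 3 of the 14 markers (she, kdr and cldn5b) had no read in any floor cell. Floor cells 3, 6, 16 and 18 of 21 hpf had endothelial shares between 0.76% and 3.38%, against 0.00615% to 0.22% in the other 14. Floor cell 6 of 28 hpf held 2.69% of its reads in 6 muscle genes. Low globin reads also occurred in the roof at the earlier stage: hbae3, an embryonic alpha globin, had 1 or more reads in 0 of 10 roof cells of 28 hpf and in 11 of 18 roof cells of 21 hpf, at 14.3 CPM at most. The 28 hpf floor and roof cells also carry titles of different form, and whether this marks a batch cannot be told apart from the region.

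All 8 genes were higher in the floor than in the roof at both stages, and each had floor cells with high levels beside others at 0. At 28 hpf, 8 of 8 were at least 2-fold higher, in a comparison where 35% of 11168 genes were at least 2-fold higher in the floor. At 21 hpf, 8 of 8 were again at least 2-fold higher, where 32.8% of 12944 genes were. The 8 genes and the marker lists were chosen with earlier results of these data known, so these counts are descriptions only. The median log2 ratio of the 8 genes, with lower bounds entered at their bound, was 5.65 at 28 hpf and 7.75 at 21 hpf, against 0.07 and 0.15 for all genes. Lower bounds were 5 of the 8 ratios at 28 hpf and 2 at 21 hpf, so the medians of the 8 genes cannot be compared between stages. Endothelial markers moved the other way, with 13 of 14 at least 2-fold lower in the floor at each stage, where 35.6% of all genes at 28 hpf and 25.7% at 21 hpf were. The 15 erythroid markers were higher in the floor for 14 of the 14 measured at 28 hpf and for 15 of 15 at 21 hpf. What the mix of cell kinds in each region contributes to the ratios was not tested. None of the 8 ratios fell under 2-fold at either stage when any single cell was left out.

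**Figure D1:**
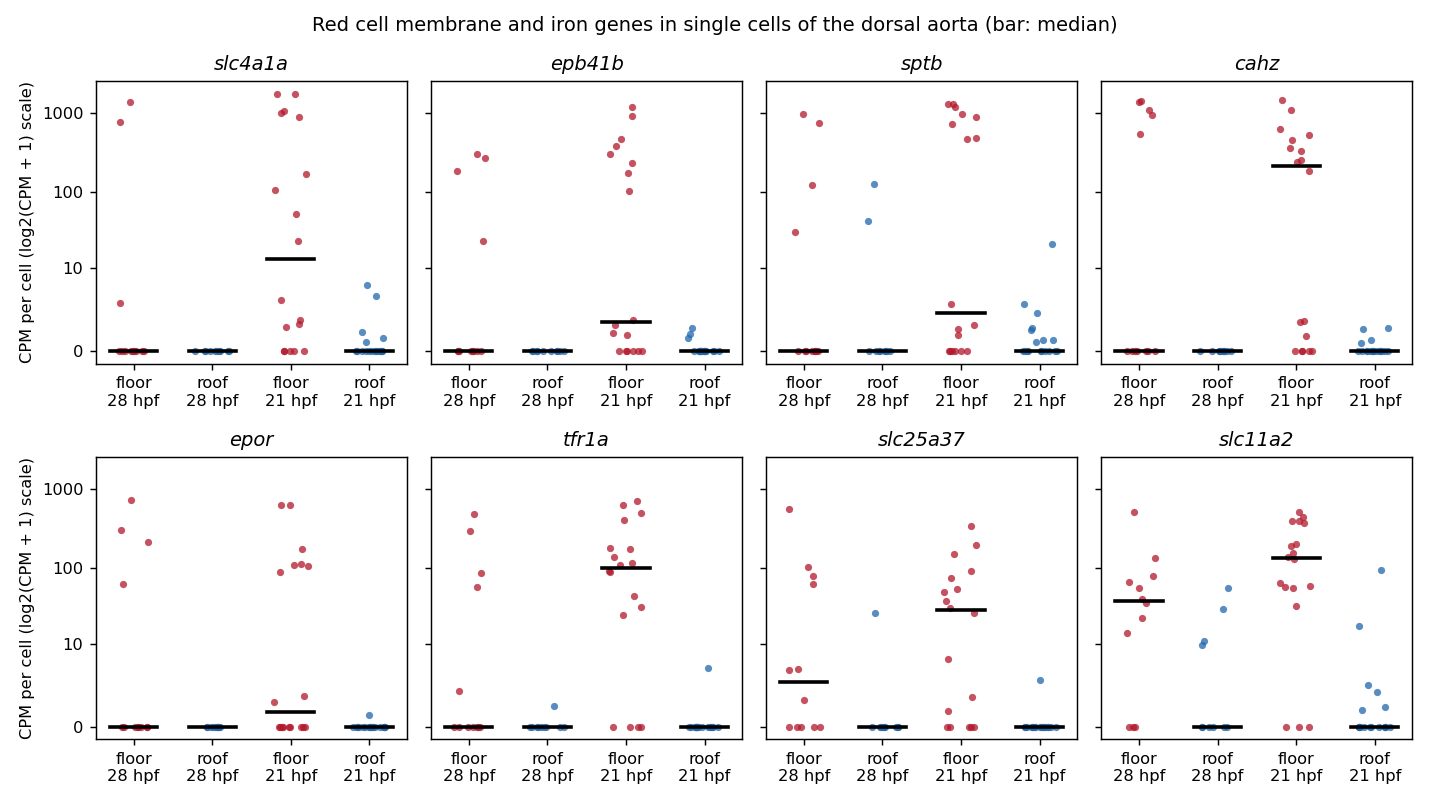
Level of each of the 8 genes in every cell, as CPM on a log2(CPM + 1) axis, for 12 floor and 10 roof cells at 28 hpf and 18 floor and 18 roof cells at 21 hpf. Each point is 1 cell and each black bar is the median of its group. Most floor groups hold a cluster of high cells and a cluster at or near 0. For slc11a2 and tfr1a at 21 hpf most floor cells are high. Floor levels are more graded for slc11a2 at 28 hpf and for slc25a37 and slc4a1a at 21 hpf.

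The band 3 gene slc4a1a encodes the chloride and bicarbonate exchanger that is the main anchor of the red cell skeleton, and its zebrafish mutant is retsina. At 28 hpf it was carried by 2 floor cells, at 1395 CPM in cell 11 and 773 CPM in cell 5. Floor cell 10 had 3.03 CPM, the other floor cells had no read, and all 10 roof cells were at 0. At 21 hpf it ranged from 0 to 1742 CPM over the floor cells with a median of 13.5 CPM, and from 0 to 5.72 CPM over the roof cells with a median of 0. Floor cells 10, 13, 14, 15 and 17 of 21 hpf had 883 CPM or more, and the low floor cells overlapped the roof. Summed levels were 183 CPM (167 to 201) in the floor against 0 in the roof at 28 hpf, at least 122-fold higher in the floor with the roof set to 3 reads over the group. At 21 hpf they were 368.1 CPM (349 to 388) in the floor against 0.588 CPM in the roof, a ratio of 626 (interval 173 to 5172) that rests on 2 roof reads. That log2 ratio of 9.29 became 10.20 without roof cell 5 or roof cell 13. Without floor cell 11 of 28 hpf the log2 ratio of that stage was at least 5.40 instead of 6.93.

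Protein 4.1 (epb41b, mutant merlot) joins spectrin to actin and to the membrane. It had 299, 270, 184 and 23 CPM in floor cells 5, 11, 10 and 7 of 28 hpf, and no read in the remaining floor cells or in the roof. At 21 hpf, 8 floor cells had 103 to 1182 CPM, the other 10 had 1.46 CPM or less, and no roof cell exceeded 0.966 CPM. At both stages these higher floor cells lay above every roof cell, and no floor cell of 21 hpf lay between 1.46 and 103 CPM. The floor level was at least 42.8-fold the roof level at 28 hpf and at least 247-fold at 21 hpf. The bound of 28 hpf fell to a log2 ratio of 4.80, against 5.42, without floor cell 11.

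Beta-spectrin (sptb, mutant riesling) forms the skeleton's long flexible rods with alpha-spectrin, and it was the only membrane gene of the 3 that was clearly present in roof cells. Floor cells 11, 5, 7 and 10 of 28 hpf had 975, 738, 124 and 30.4 CPM, and the other 8 floor cells had none. Roof cells 1 and 10 of 28 hpf had 128 and 42.1 CPM, inside the range of the floor cells, and the other 8 roof cells were at 0. At 21 hpf, 8 floor cells had 469 to 1310 CPM, well above the other floor cells (up to 2.92 CPM) and the highest roof cell (21.1 CPM, cell 14). The floor-to-roof ratio was 9.09 (6.32 to 13.5) at 28 hpf, from 145 and 16 CPM, and 175 (88.7 to 407) at 21 hpf, from 412 and 2.35 CPM. At 28 hpf the log2 ratio of 3.18 moved to 2.54 without floor cell 5, to 2.31 without floor cell 11 and to 4.45 without roof cell 1. At 21 hpf it moved from 7.45 to 8.78 without roof cell 14. The slc4a1a and epb41b genes had no read in the 2 sptb-positive roof cells of 28 hpf.

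The red cell carbonic anhydrase cahz, which interconverts carbon dioxide and bicarbonate, was high in more floor cells than the membrane genes. At 28 hpf floor cells 11, 5, 6, 10 and 7 had 1408, 1369, 1083, 943 and 544 CPM, and all other floor cells and all roof cells had none. At 21 hpf the floor cells ranged from 0 to 1464 CPM with a median of 214 CPM, and the roof cells from 0 to 0.933 CPM. Of the 18 floor cells of 21 hpf, 10 had 186 CPM or more and the other 8 had 1.38 CPM or less, so the distribution was split. Among the 5 high cells of 28 hpf was cell 6, the one with muscle transcripts, in which gata1a, alas2 and the 3 membrane genes had no read. That cell did hold globin reads, with hbae3 at 604 CPM and the globin hbae1.3 at 1960 CPM. The 15 erythroid markers took 0.727% of its reads, against a median of 0.19% in the floor cells of 28 hpf. The floor level was 448 CPM at 28 hpf, at least 299-fold the roof level. At 21 hpf it was 304 CPM against 0.588 CPM in the roof, a ratio of 517 (143 to 4275) from 2 roof reads. That log2 ratio of 9.01 became 9.93 without roof cell 6 or roof cell 8.

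The erythropoietin receptor epor relays the hormone that keeps red cell precursors alive and dividing. Floor cells 11, 7, 5 and 10 of 28 hpf had 710, 300.4, 212 and 62.3 CPM, with no read in the other 8 floor cells or in the roof. At 21 hpf, 7 floor cells had 86.8 to 626 CPM, the other 11 had 1.42 CPM or less, and a single roof cell had 0.391 CPM. No floor cell lay between 0 and 62.3 CPM at 28 hpf, or between 1.42 and 86.8 CPM at 21 hpf. Floor levels of 107 CPM at 28 hpf and 105 CPM at 21 hpf were at least 71.4-fold and at least 119-fold those of the roof. Without floor cell 11 of 28 hpf the log2 bound of that stage was 5.20 instead of 6.16.

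The transferrin receptor tfr1a (mutant chianti) is the entry point of transferrin iron, and it marked most floor cells at 21 hpf. At 28 hpf floor cells 7, 11, 5 and 10 had 485, 294, 85.5 and 56.5 CPM, 1 other floor cell had 1.81 CPM, and the roof cells reached 0.826 CPM. At 21 hpf the floor cells ranged from 0 to 694 CPM with a median of 98.8 CPM, and 1 roof cell of 18 had reads, at 4.51 CPM. In all, 14 floor cells of 21 hpf had 24.9 CPM or more, above every roof cell, and the 4 at 0 were cells 3, 6, 16 and 18, the cells with the high endothelial shares. Detection reached 4 of 12 floor cells against 0 of 10 roof cells at 28 hpf, and 13 of 18 floor cells against 0 of 17 roof cells at 21 hpf. A count of 0, read as at most 3 cells, allows a share of cells with detected reads of up to 30% of 10 cells and of up to 17.6% of 17 cells, for the counting of these cells and not for embryos. The floor level was 88.3 CPM at 28 hpf, at least 58.9-fold that of the roof, and at 21 hpf it was 185 CPM, with a ratio of 630 (113 to 24918) over 1 roof read. Leaving out floor cell 7 of 28 hpf moved the log2 bound of that stage from 5.88 to 5.01. Leaving out roof cell 10 of 21 hpf turned that ratio into a log2 bound of 7.63.

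The divalent metal transporter slc11a2 (mutant chardonnay), which exports iron from the endosome and also serves other cells, was the most widespread of the 8. At 28 hpf the floor cells ranged from 0 to 513 CPM with a median of 37.4 CPM, and the roof cells from 0 to 54.8 CPM with a median of 0. At 21 hpf the floor cells ranged from 0 to 513 CPM with a median of 133 CPM, and the roof cells from 0 to 92.6 CPM with a median of 0. Floor and roof overlapped at both stages, since roof cells 2 and 4 of 28 hpf had 54.8 and 29.7 CPM and roof cells 7 and 17 of 21 hpf had 92.6 and 17.8 CPM. Roof cell 7 of 21 hpf had the lowest endothelial share of the roof cells of that stage, 0.483% against a median of 2.08%. It was detected in 7 of 12 floor and 2 of 10 roof cells at 28 hpf, and in 15 of 18 floor and 1 of 17 roof cells at 21 hpf. The floor-to-roof ratio was 8.33 (5.37 to 13.6) at 28 hpf and 33.8 (20.9 to 58.4) at 21 hpf. The log2 ratio of 3.06 at 28 hpf became 1.97 without floor cell 11 and 3.91 without roof cell 2, and that of 5.08 at 21 hpf became 7.08 without roof cell 7.

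Mitoferrin (slc25a37, mutant frascati) imports iron into the mitochondria of red cell precursors. At 28 hpf floor cell 5 had 557 CPM, cells 10, 7 and 11 had 102, 78.8 and 61 CPM, and the other floor cells had 4.38 CPM or less. One roof cell of 28 hpf, cell 5, had 26.4 CPM and the others none. At 21 hpf the floor cells ranged from 0 to 338 CPM with a median of 28.3 CPM, and the roof cells had 0 reads apart from 2.86 CPM in cell 5. In all, 10 floor cells of 21 hpf had 26 CPM or more, above all roof cells. The ratio was 36.1 (12.1 to 177) at 28 hpf over 3 roof reads and 187 (33.2 to 7423) at 21 hpf over 1 roof read. Without floor cell 5 of 28 hpf the log2 ratio was 3.60 instead of 5.17, and without roof cell 5 of 21 hpf it was a bound of 5.87 instead of 7.55.

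**Figure D2:**
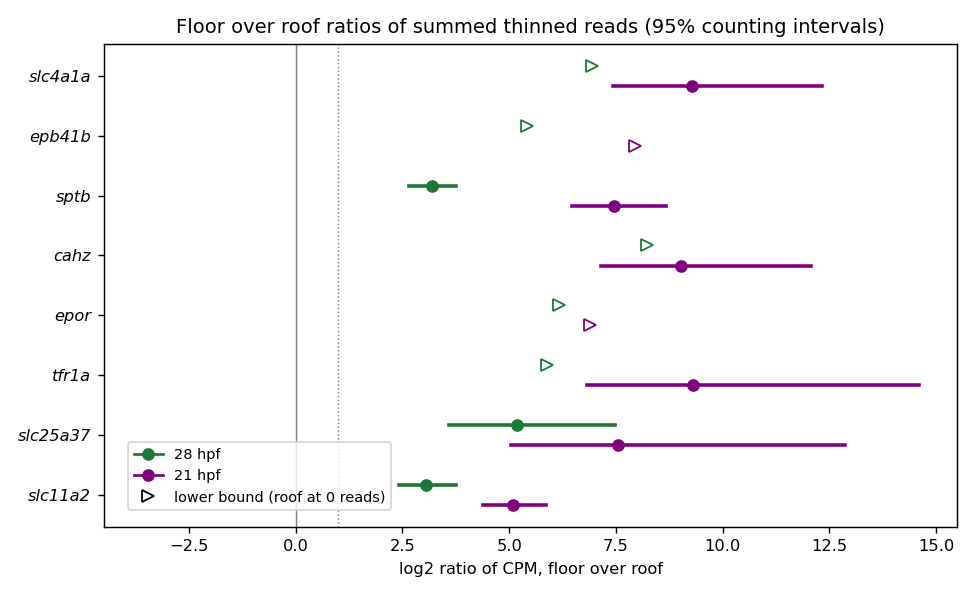
Log2 ratio of the summed CPM of the floor over the roof for each gene at 28 hpf and at 21 hpf. Points with bars are ratios with exact 95% counting intervals, open triangles are lower bounds where the roof had 0 reads, and the dotted line marks a 2-fold difference. All 8 genes lie above that line at both stages, and sptb and slc11a2 have the smallest ratios at 28 hpf, at 3.18 and 3.06.

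Within the floor, the membrane genes and tfr1a had lower summed levels at 28 than at 21 hpf, as had many other genes. The ratios of epor and slc25a37 were near 1 but rested on a few cells. At 28 hpf, 4 of the 8 genes were at least 2-fold lower, which lies near the share of all genes, 41.8% of 12246. At least 2-fold higher were 0 of 8, where 16.9% of all genes were. Summed levels at 28 and at 21 hpf were 64.2 and 218 CPM for epb41b (3.40-fold lower, interval 2.86 to 4.07) and 145 and 412 CPM for sptb (2.83-fold lower, 2.52 to 3.19). They were 88.3 and 185 CPM for tfr1a (2.10-fold lower, 1.79 to 2.46) and 183 and 368.1 CPM for slc4a1a (2.01-fold lower, 1.80 to 2.24). The remaining 4 stayed within 2-fold, with slc11a2 1.84-fold lower, slc25a37 1.02-fold lower, epor 1.02-fold higher and cahz 1.47-fold higher. The median log2 ratio of the 8 genes was -0.94, against -0.56 over all genes. The sum of hbae3 was 1.12-fold higher at 28 hpf, but it rested mainly on 1 cell. Floor cell 11 of 28 hpf had 4566 thinned reads of hbae3, and each other floor cell of that stage had 879 or fewer. Of the 15 erythroid markers, 6 were at least 2-fold lower at 28 hpf and 1 was higher, with a median log2 ratio of -0.62.

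These stage differences rest on few cells, and the sums of 28 hpf include floor cells 1, 3, 4 and 9, in which few genes were found. The sums also pool cells with and without these genes. Of the floor cells, 3 of 12 at 28 hpf and 8 of 18 at 21 hpf had 1000 CPM or more of hbae3. What this mix contributes to the stage differences was not tested. The number of the 8 genes at least 2-fold lower ranged from 2 to 5 over the 30 choices of 1 floor cell left out. Without floor cell 11 of 28 hpf, log2 ratios were -2.54 for slc4a1a, -2.38 for epb41b, -2.38 for sptb, -0.93 for epor and -1.97 for slc11a2. Without floor cell 5 of 28 hpf they were -2.15 for sptb and -1.60 for slc25a37, and without floor cell 7 tfr1a was at -1.94. The cells of title part M12 include cells 7 and 11. Cell 12 was placed in that part by its description, since its title reads D12 there. Without the M12 cells, log2 ratios were -1.67 for slc4a1a, -1.48 for epor, -3.34 for tfr1a and -1.86 for slc11a2. Without them 6 of the 8 genes were at least 2-fold lower. Cell 5 is the only cell of part M10, without which 5 of the 8 genes were. The slightly higher level of cahz disappeared when raw counts were summed without thinning (log2 ratio -0.0009), and epor turned from a log2 ratio of 0.03 to 0.40 in that setting. With DESeq2 size factors all log2 ratios of this comparison shift by 0.24, and slc4a1a and tfr1a are then less than 2-fold lower, at -0.76 and -0.83. Floor cells 3, 6, 16 and 18, the ones with high endothelial shares, are all of 21 hpf. Without them the 21 hpf level is higher, and the log2 ratios were -1.37 for slc4a1a, -2.13 for epb41b, -1.43 for tfr1a and -0.33 for epor.

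In the roof, sptb and slc11a2 alone had the 10 reads over both stages that a ratio needed. Both were at least 2-fold higher at 28 hpf, where 22.6% of 11642 genes were. Sptb was at 16 CPM at 28 hpf and 2.35 CPM at 21 hpf, a ratio of 6.80 (3.07 to 17.1), and slc11a2 was at 11 CPM at 28 hpf and 5 CPM at 21 hpf, a ratio of 2.20 (1.12 to 4.41). The sptb reads came mainly from roof cell 1 of 28 hpf, without which the log2 ratio was 1.50 instead of 2.77, and without roof cell 14 of 21 hpf it was 4.09. For slc11a2 the log2 ratio of 1.14 was 0.29 without roof cell 2 of 28 hpf and 3.14 without roof cell 7 of 21 hpf. Its direction turned, to a log2 ratio of -1, without the 28 hpf roof cells whose titles share the part dorsal2. It was under 2-fold with raw sums (log2 ratio 0.29), with mean CPM per cell (0.71) and with a second thinning (0.88). The number of the genes at least 2-fold higher was 1 without roof cell 2 or without roof cell 4 of 28 hpf.

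Ordered by their hbae3 level, the 30 floor cells showed slc11a2 in 8 and tfr1a in 3 of the 15 cells with the least hbae3. The membrane genes were detected almost only in cells with much hbae3. The cells fell into 15 with under 10 hbae3 CPM, 3 with 10 to 100, 1 with 100 to 1000 and 11 with 1068 to 23010 CPM. The order therefore rests on few cells between the ends. Among the 15 lowest cells, slc11a2 was detected in 8, tfr1a in 3, cahz and slc25a37 in 2 each, epor and sptb in 1 each, and slc4a1a and epb41b in 0. These 15 cells are of mixed kind. They include floor cells 3, 6, 16 and 18 of 21 hpf, which have high endothelial shares. Floor cells 1, 3, 4 and 9 of 28 hpf, in which few genes were found, are also among them. Of the 3 lowest-range cells with tfr1a, 2 were of 21 hpf and 1 of 28 hpf. In the 3 cells of 10 to 100 CPM, tfr1a and slc11a2 were detected in all 3 and cahz in 2, and the other 5 genes in none. These 3 cells were all of 21 hpf, so this range was seen at that stage alone. The single cell between 100 and 1000 CPM, the one with muscle transcripts, had cahz and slc11a2. Among the 11 highest cells, tfr1a and epb41b were detected in 11 and the other 6 genes in 10 each.

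**Figure D3:**
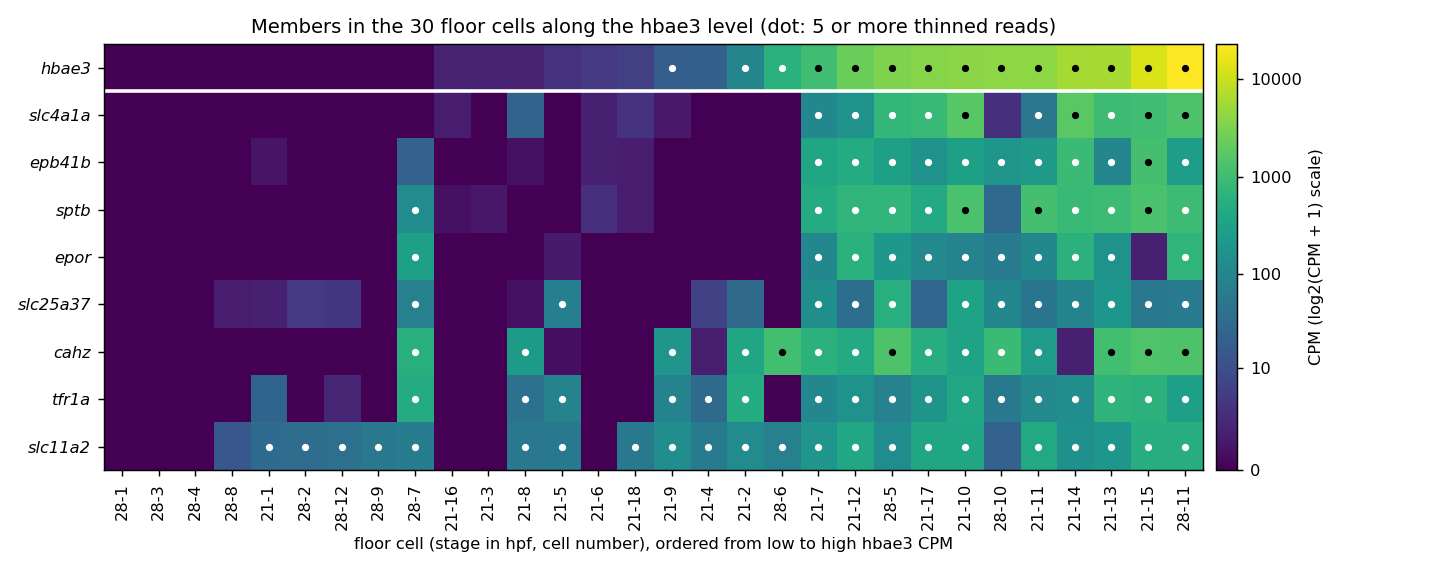
Levels of hbae3 and the 8 genes (rows) in the 30 floor cells (columns), with cells ordered from low to high hbae3 and colour giving CPM on a log2(CPM + 1) scale. Dots mark genes with 5 or more thinned reads in a cell. The rows for slc11a2, tfr1a and cahz extend to the left of the 11 cells with 1068 CPM or more of hbae3, and those for epb41b and slc4a1a do not.

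In 16 floor cells hbae3 itself was not detected, and 6 of the 8 genes were detected in at least 1 of them. As background, 99.1% of the 7190 genes detected in 5 or more floor cells were also detected in at least 1 of these 16 cells, so slc4a1a and epb41b were among 68 genes that were not. The 68 include hbae3 by construction. That background was not matched for the number of cells with the gene. A gene detected in more than 14 floor cells must be in at least 1 of the 16, while slc4a1a and epb41b were detected in 10 and 11. Slc11a2 was detected in 9 of the 16, tfr1a in 4, cahz in 2, slc25a37 in 2, and epor and sptb in 1. The epor and sptb calls both came from floor cell 7 of 28 hpf, and the count of genes was 4 without it. Both exceptions were also near the detection limit: floor cell 7 of 28 hpf had 147 unthinned reads of epb41b (23 CPM), and floor cell 8 of 21 hpf had slc4a1a at 23.5 CPM. With 5 or more unthinned reads as the rule, all 8 genes were detected in at least 1 of 13 cells without hbae3. With 1 thinned read as the rule it was again all 8, in 12 cells, and with a second thinning 7, with epb41b added.

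Most cells without detected hbae3 had some globin reads. Summed over 10 embryonic globin genes, 15 of the 16 had 5 or more thinned globin reads, and 9 had hbae1.3. The median over the 16 was 28 reads and the maximum 239. A few reads meet this rule, and roof cells were not counted by it. Roof cell 10 of 21 hpf, for one, had 5 thinned reads of hbae1.1 and 4 of hbae1.3. Floor cell 12 of 28 hpf had 637 CPM of hbae1.3 with no hbae3 read. The near-identical copies hbae1.1 and hbae1.3 can share reads, so their separate levels are uncertain. With the summed globins in place of hbae3, 1 floor cell was without detected globin and none of the 8 genes was detected in it. With alas2 or gata1a as the ordering gene, 4 of the 8 (cahz, tfr1a, slc25a37 and slc11a2) were detected in cells without it.

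Floor cell 7 of 28 hpf stood apart. It had no hbae3 read among 6397581, yet 1791 CPM of gata1a, the master regulator of red cell genes, 269 CPM of alas2, the first enzyme of heme synthesis, and 762 CPM of hbae1.3. It held 6 of the 8 genes, including the highest tfr1a of its stage (485 CPM). The opposite case was floor cell 15 of 21 hpf, which had 13245 CPM of hbae3 and 7 of the 8 genes but epor at only 1.42 CPM. Floor cell 14 of 21 hpf had 6040 CPM of hbae3 and 1742 CPM of slc4a1a, and cahz at 1.38 CPM. Floor cell 10 of 28 hpf had 4191 CPM of hbae3 and 943 CPM of cahz, with slc4a1a at 3.03 CPM. These 4 cells were singled out after their values were seen.

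The sets of genes found together in a cell were nearly nested. Of the 30 floor cells, 7 had none of the 8 genes, 5 had 1, 2 had 2, 4 had 3, none had 4, 1 had 5, 1 had 6, 3 had 7 and 7 had all 8. The 7 cells with none include floor cells 1, 3 and 4 of 28 hpf, in which few genes of any kind were found. They also include floor cells 3, 6 and 16 of 21 hpf, which have high endothelial shares. In all 5 cells with a single gene, that gene was slc11a2. The 4 cells with 3 genes were all of 21 hpf: cells 2, 8 and 9 had slc11a2, tfr1a and cahz, and cell 5 had slc11a2, tfr1a and slc25a37. Slc4a1a was never detected without epb41b, sptb, tfr1a and slc11a2, while slc11a2 was detected without slc4a1a in 12 cells. Tfr1a was detected without slc11a2 in 1 cell and slc11a2 without tfr1a in 6. Slc25a37 was never detected without tfr1a, and tfr1a was without slc25a37 in 5 cells. Tfr1a was detected without alas2 in 2 cells and alas2 never without tfr1a.

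**Figure D4:**
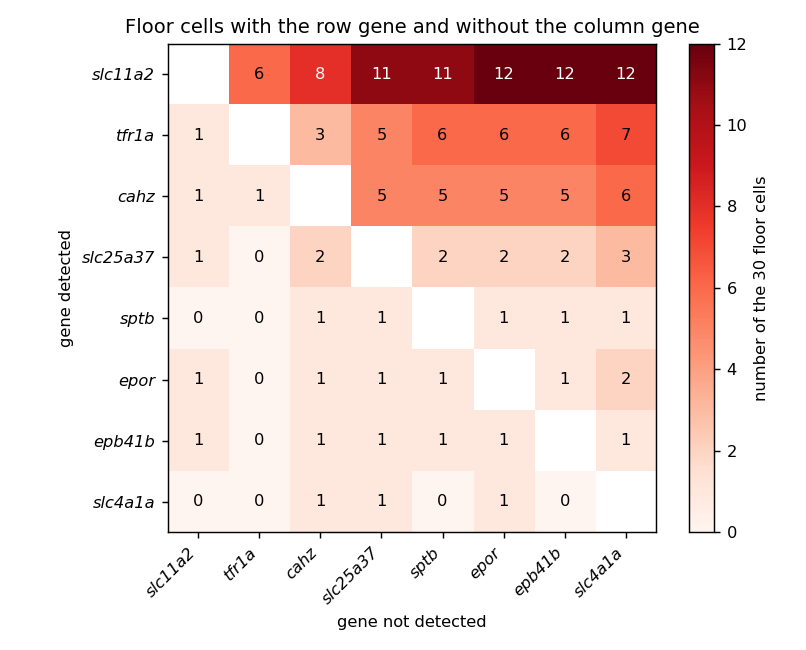
Number of the 30 floor cells in which the gene of the row was detected (5 or more thinned reads) and the gene of the column was not. Numbers are 1 to 12 above the diagonal and 0 to 2 below it: slc11a2 occurred without slc4a1a in 12 cells and slc4a1a without slc11a2 in 0.

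The ranking by the number of floor cells with the gene was 22 for slc11a2, 17 for tfr1a, 15 for cahz, 12 for slc25a37, 11 each for epor, sptb and epb41b, and 10 for slc4a1a. At 28 hpf the numbers were 7, 4, 5, 4, 4, 3, 3 and 2 of 12 cells in that order of genes, and at 21 hpf 15, 13, 10, 8, 7, 8, 8 and 8 of 18 cells. Slc11a2 was first and tfr1a second with 1 thinned read, with 5 unthinned reads and with a second thinning. With 10 thinned reads, tfr1a and cahz tied at 15 cells behind slc11a2 at 19. The lower ranks were less settled, since slc25a37 was detected in 8 cells at 10 thinned reads and in 18 at 5 unthinned reads. A gene of low level is detected in fewer cells at any cell stage, and no cell was followed over time, so the ranking describes co-occurrence at fixed depth.

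Several of the genes have close relatives, and one of these, tfr1b, was as widespread in the floor as tfr1a. In zebrafish tfr1a is the receptor that red cells need, and tfr1b serves other tissues. Floor cells of 28 hpf ranged from 0 to 359 CPM of tfr1b with a median of 81.4 CPM, floor cells of 21 hpf from 0 to 202 CPM with a median of 70.05 CPM, and no roof cell had a read at either stage. Floor cells 1, 2 and 3 of 28 hpf had 359, 288 and 173 CPM of tfr1b with no tfr1a read. In the reverse case, floor cells 2, 10 and 15 of 21 hpf had 493, 397 and 623 CPM of tfr1a with no tfr1b read. Over the 30 floor cells both were detected in 12, tfr1a alone in 5, tfr1b alone in 7 and neither in 6. Tfr1b was detected in 10 of the 16 floor cells without hbae3, where tfr1a was detected in 4. In the 14 floor cells with detected hbae3, tfr1b was detected in 9 and tfr1a in 13. The floor level of tfr1b was 118 CPM at 28 hpf, at least 78.3-fold that of the roof, and 68.9 CPM at 21 hpf, at least 78.1-fold. It was 1.71-fold higher (1.43 to 2.03) at 28 than at 21 hpf, while tfr1a was 2.10-fold lower. How reads of sequence shared by both copies were assigned is not given in the sources used here.

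**Figure D5:**
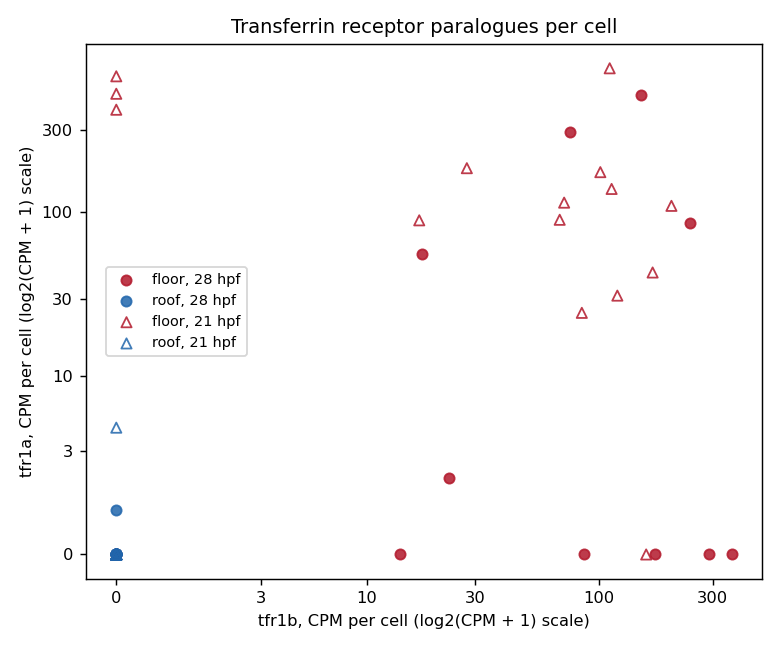
Levels of tfr1a (vertical axis) and tfr1b (horizontal axis) in each cell, as CPM on log2(CPM + 1) axes. Red symbols are floor cells and blue ones roof cells, filled circles 28 hpf and open triangles 21 hpf. Floor cells with 173 to 359 CPM of tfr1b and no tfr1a lie at the lower right, those with 397 to 623 CPM of tfr1a and no tfr1b at the upper left, and roof cells near the origin.

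Mitoferrin 2 (slc25a28), which serves many cell types, was at 43.8 CPM in the floor and 6.5 CPM in the roof at 28 hpf (ratio 6.73, 3.77 to 13.1), and at 39.4 CPM in the floor and 10.9 CPM in the roof at 21 hpf (3.62, 2.51 to 5.36). Unlike slc25a37 it was detected in the roof, in 1 of 10 cells at 28 hpf and 3 of 17 at 21 hpf. At 28 hpf this contrast rests on the cut of 5 thinned reads. Roof cell 9 had 27.4 CPM of slc25a28 with 7 thinned reads, and roof cell 5 had 26.4 CPM of slc25a37 with 3. Some floor cells were high in both mitoferrins, with 120 CPM of slc25a28 and 557 CPM of slc25a37 in cell 5 of 28 hpf and 157 and 338 CPM in cell 10 of 21 hpf. The highest slc25a28, 225 CPM, was in floor cell 4 of 28 hpf, which had no slc25a37 read. The band 3 relative slc4a1b was detected in 1 floor cell, at 85.6 CPM in cell 1 of 21 hpf, where slc4a1a had no read. The epb41a gene was detected in no cell, and ca2, a carbonic anhydrase of other tissues, in 2 roof cells of 21 hpf alone.

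Across the 30 floor cells, each of the 3 membrane genes had its highest correlation among the 8 genes with another membrane gene. Pearson's r was taken on log2(CPM + 1), with CPM here from the thinned reads of each cell. It was 0.95 between epb41b and sptb, 0.89 between slc4a1a and epb41b and 0.89 between slc4a1a and sptb. Among the 7190 genes detected in 5 or more floor cells, the closest to slc4a1a was the globin hbbe3 (r = 0.90), the closest to epb41b was nmt1b (0.95) and the closest to sptb was si:ch211-227m13.1 (0.95). For cahz it was alas2 (0.85), for epor tfe3a (0.93), for tfr1a acss1 (0.90), followed by alas2 (0.89), and for slc25a37 it was tfr1a (0.83). The 5 nearest to slc11a2 were dohh (0.87), lyar (0.84), rcl1 (0.84), pdcd11 (0.81) and ell2 (0.80), and none of the other 7 genes was among them. The same held for the 5 nearest to cahz and for the 5 nearest to tfr1a. The r of slc11a2 with the other 7 genes lay between 0.56 with epor and 0.76 with tfr1a. For cahz the range was similar, from 0.61 with slc4a1a to 0.78 with tfr1a. The 30 cells pool 2 stages and cells with and without hbae3, and r within a stage or within either kind of cell was not computed.

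Other genes of the same pathways gave a mixed picture. Of the membrane and surface list without the 8 genes, 6 of 15 measured genes were at least 2-fold higher and 5 lower in the floor at 28 hpf, and 9 of 18 higher and 4 lower at 21 hpf. Over all genes the shares were 35% higher and 35.6% lower at 28 hpf, and 32.8% higher and 25.7% lower at 21 hpf, so the counts of 28 hpf lie near those of all genes. The median log2 ratio was 0.50 at 28 hpf and 1.45 at 21 hpf. The complement shield gene cd59 had 135 CPM in the floor and 0 in the roof at 28 hpf, at least 89.7-fold higher, and 0 thinned reads in both groups at 21 hpf. The water channel aqp1a.1 was lower in the floor, at 0.417 CPM against 1612 CPM in the roof at 28 hpf and at 531 CPM against 2194 CPM at 21 hpf. Glycophorin C (gypc) was at 25.4 CPM in the floor and 69 CPM in the roof at 28 hpf, 2.71-fold lower.

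Of the iron and heme transport list without the 8 genes, 10 of 19 were at least 2-fold higher and 4 lower in the floor at 28 hpf, and 16 of 24 higher and 4 lower at 21 hpf, with median log2 ratios of 1.66 and 1.94. Of all genes, 35% were higher and 35.6% lower at 28 hpf, and 32.8% and 25.7% at 21 hpf. The mitochondrial transporter abcb10, a partner of mitoferrin in mouse red cells, was at 80.8 CPM in the floor and 11.5 CPM in the roof at 28 hpf (7.03-fold), and at 201 CPM in the floor and 0 in the roof at 21 hpf (at least 227-fold). Its roof reads of 28 hpf came from roof cell 3, at 119 CPM. The transcript of the iron exporter ran the other way. Ferroportin (slc40a1), the only known exporter of iron from cells, was at 2.92 CPM in the floor and 199 CPM in the roof at 28 hpf, 68.2-fold lower (32.8 to 171), and at 28.6 CPM in the floor and 127 CPM in the roof at 21 hpf, 4.44-fold lower (3.57 to 5.56). In floor cells of 21 hpf its 4 highest values were 171, 99.7, 92.9 and 81.9 CPM in cells 3, 9, 16 and 18, of which 3 are cells with high endothelial shares. The ferric reductase cybrd1 was 33.6-fold lower in the floor at 28 hpf, at 2.08 CPM against 70 CPM in the roof.

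Of the erythropoietin signalling list without epor, 6 of 19 genes were at least 2-fold higher and 7 lower in the floor at 28 hpf, and 4 of 21 higher and 5 lower at 21 hpf, with median log2 ratios of -0.28 and 0.07. The shares of all genes were 35% higher and 35.6% lower at 28 hpf, and 32.8% and 25.7% at 21 hpf, so the list was not higher more often than all genes at either stage. The phosphatase ptpn6 was higher in the floor, at 73.8 CPM against 0 in the roof at 28 hpf and at 67.5 CPM against 2.94 CPM at 21 hpf. The kinase jak2a, which binds the receptor, was at 57.9 CPM in the floor and 15 CPM in the roof at 28 hpf, 3.86-fold higher. The inhibitors socs3a and sh2b3 and the kinase pim1 were 7.78-fold, 4.14-fold and 3.91-fold lower in the floor at 28 hpf, and ptpn11a was 3.86-fold lower at 21 hpf. At 21 hpf socs3a was instead 6.88-fold higher in the floor.

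Markers of other blood cells were also present in floor cells. A list of 9 hematopoietic progenitor markers took a median of 0.291% of the reads of a floor cell and 0.0339% of those of a roof cell at 28 hpf, and 0.213% in the floor and 0.0689% in the roof at 21 hpf. In the 11 floor cells with 1068 CPM or more of hbae3 that share lay between 0.0896% and 0.534%. The neutrophil peroxidase mpx had 101 to 2860 CPM in 8 of the 11 floor cells with 1068 CPM or more of hbae3, and 0 in all roof cells of 28 hpf. Of the other 3 neutrophil markers, lyz, cpa5 and npsn had no read in any floor cell of 28 hpf, and cpa5 and npsn had none in any floor cell of 21 hpf. Of the 5 macrophage markers, mpeg1.1, marco and csf1ra had no read in any floor cell, spi1b had reads at both stages and mfap4 at 21 hpf, and the list took 0.0213% of the reads of a floor cell at most. Outside those 8 cells, mpx was at 4.62 CPM or less in every floor cell. Whether these markers reflect separate cell kinds, and their part in the levels of the 8 genes, was not tested.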

How the data were processed

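Single red Eos+ cells were made into Smart-seq2 libraries from oligo-dT captured RNA and read as 150 bp paired ends, per the labels' protocols. The authors deposited raw gene counts, 1 column per cell, for 35117 genes, of which 14082 had no read. Per the submitters' processing notes, Trim Galore, STAR and the GRCz11 (danRer11) build were used. Neither their versions nor the counter, the gene annotation or the strandedness of counting is given in the sources used here. For 4701 IDs the symbol was looked up in a reference list, and where entries shared a symbol (2383 entries) the one with the most reads kept it. No 2 cells held identical counts (highest correlation 0.807).

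Total counts per cell ran from 129849 to 8254178. In each of 57 cells the counts were thinned to 200000 reads (seed 1) and summed per group with Python 3.11.15 and numpy 2.4.6. A ratio needed 10 reads over both groups. A group at 0 was set to 3 reads over the group, so that the ratio is a bound that leaves out the counting error of the other group. Intervals came from scipy 1.17.1 (exact Poisson and binomial, 95%). The procedure was also run on simulated counts in which all cells of a group shared 1 profile. Floor cells differ widely from each other, so that run does not cover the spread between cells. TMM (edgeR 4.0.16) and DESeq2 1.42.0 factors were used only as other scalings. Since cells are not replicates, nothing was tested.

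Groups came from the region and stage in the labels. The 8 genes, the gene lists and the alternatives were chosen with earlier results of these data known. Named genes were the 8, hbae3 and near relatives, of each list up to 3 genes each way per comparison of floor and roof at 50 CPM or more in the higher group, and the 5 genes with the highest r for each. Genes named for a single cell, and mpx, were chosen after their values were seen. No sequence or coordinate is given, since no genome of the build was used here.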

Additional observations from a re-analysis of the deposited data

How the results depend on the processing

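All 8 genes stayed at least 2-fold higher in the floor than in the roof, at both stages, under raw sums, mean CPM per cell, a second seed, TMM and DESeq2 scaling, totals without mitochondrial and erythroid genes, minimums of 1 and 50 reads, a pseudocount of 1 CPM, without each title part of the 28 hpf cells, without floor cells 3, 6, 16 and 18 of 21 hpf, and without any single cell (8 to 8). Leaving out floor cell 6 of 28 hpf, which has muscle transcripts, was chosen after seeing the data. The count of genes at least 2-fold lower at 28 than at 21 hpf in the floor, 4 as reported, was 2 under TMM, 2 under DESeq2, 2 without title part M11, 2 without M8, 2 without M9 and 2 without the cell with muscle transcripts. It was 5 with raw sums, mean CPM per cell, seed 2, without floor cells 3, 6, 16 and 18 of 21 hpf or without M10, 6 without M12, and 2 to 5 over single cells left out. slc4a1a and tfr1a lie close to 2-fold. No gene was at least 2-fold higher there under any of these (0 to 0). The count of genes at least 2-fold higher at 28 than at 21 hpf in the roof, 2 as reported, was 1 with mean CPM per cell, 1 with seed 2, 0 with a minimum of 50 reads, 1 without title part dorsal2, and 1 to 2 over single cells left out. In that comparison slc11a2 reversed to a log2 ratio of -1 without dorsal2. The count of genes detected in floor cells without hbae3, 6 as reported, was 0 with the summed globins, where 1 cell was left to look in. It was 8 with 1 thinned or 5 unthinned reads, 7 with seed 2, 4 with alas2 or gata1a as the ordering gene or with 21 hpf alone, and 4 to 6 over single cells left out. The causes were otherwise not tested. Leaving out cells with under 2000 genes removed 0 cells. No paired analysis was possible because the replicate numbers only count cells, and no result comes from a test. Depth limits genes with a few reads per cell, above all slc25a37.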
